A study of Homo sapiens with 60 samples.

Results

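The comparison pooled 3 herbal extracts, liriope, longan and zizyphus, and set the high dose against the low dose within each of them in HepG2 cells. HepG2 is a human liver cancer line that keeps much of the hepatocyte programme. The 18 libraries, of 60 in the series, were taken by extract and dose as the sample labels give them: 9 at the high dose and 9 at the low dose, 3 per extract and dose. Cells were exposed for 24 h to 500 µg/mL (high) or 20 µg/mL (low), a 25-fold difference, of an extract made in 70% ethanol. The plant materials were the tuber named Liriopis seu Ophiopogonis Tuber (liriope), the aril of longan (Longan Arillus) and the seed named Zizyphi Semen (zizyphus). Medium dose libraries (100 µg/mL, 3 per extract) and 3 libraries of cells given the vehicle dimethyl sulfoxide (DMSO) were used beside them. High and low libraries of other extracts, at the same doses and time, were compared with them. These were the ethanol extract schisandra (6 libraries) and the water extracts soshiho (4 libraries, replicates 2 and 3) and yijin (6 libraries). The sample labels state 0.1% DMSO and the series text states 2%. The labels do not say whether replicates came from separate cultures, so p-values measure the spread between these libraries, which may be technical. In every extract, dose runs together with the position number in the sample code, and the vehicle has a sample code of its own, so neither can be told apart from the treatment. The question was whether 9 libraries against 9 show small dose responses that 3 against 3 miss.

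Liver cells answer foreign compounds through several receptors. In one response, the aryl hydrocarbon receptor (AhR) binds planar ligands, enters the nucleus with its partner ARNT and binds xenobiotic response elements with the core GCGTG, and CYP1A1, a cytochrome P450 that oxidizes polycyclic aromatic compounds, is its best known target. In another, electrophiles and oxidants free the transcription factor NRF2 from its inhibitor KEAP1, and NRF2 with a small MAF protein binds antioxidant response elements with the core TGACNNNGC. Its human targets include aldo-keto reductases of the AKR1B and AKR1C families, the glutathione synthesis gene GCLM and the heme oxygenase HMOX1.

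Promoters are shown for 3 of the genes that rose in the pooled comparison. They are the 250 bases before the RefSeq start (GRCh38.p14), from 5′ to 3′ on the gene's strand, and come from chr10:4963165-4963414 (plus strand), chr10:5003858-5004107 (minus strand) and chr15:74725529-74725778 (minus strand). TGAGNNNGC, which differs from the core named above by 1 letter, was searched beside it. The capitals mark TGAGNNNGC read on the opposite strand in AKR1C1 and AKR1C2, 41 to 33 and 45 to 37 bases before the start, and GCGTG in CYP1A1, 57 to 53 bases before it.
AKR1C1: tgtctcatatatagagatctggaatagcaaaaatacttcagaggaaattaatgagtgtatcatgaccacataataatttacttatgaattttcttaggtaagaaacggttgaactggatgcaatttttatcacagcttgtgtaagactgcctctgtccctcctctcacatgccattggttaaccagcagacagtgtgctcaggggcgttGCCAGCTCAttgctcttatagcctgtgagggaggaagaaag
AKR1C2: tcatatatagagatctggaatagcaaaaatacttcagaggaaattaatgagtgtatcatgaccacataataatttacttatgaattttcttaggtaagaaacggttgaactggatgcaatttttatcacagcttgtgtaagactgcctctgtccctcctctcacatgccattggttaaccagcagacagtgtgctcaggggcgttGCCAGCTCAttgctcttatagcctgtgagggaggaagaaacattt
CYP1A1: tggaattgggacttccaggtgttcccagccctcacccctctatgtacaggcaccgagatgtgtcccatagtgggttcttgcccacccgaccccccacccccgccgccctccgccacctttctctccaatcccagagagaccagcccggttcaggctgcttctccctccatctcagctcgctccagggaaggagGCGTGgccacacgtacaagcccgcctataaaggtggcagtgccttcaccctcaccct
The AKR1C1 and AKR1C2 promoters were the same in 245 of 254 aligned columns (96.5%). Motifs were searched on both strands of 35116 promoters of the same table: TGACNNNGC was in 10.9% of them, TGAGNNNGC in 14.8% and GCGTG in 32.2%. GCGTG was also in the promoter of MATN3, a gene that fell. TGACNNNGC was in none of the windows of AKR1C1, AKR1C2, CYP1A1 and MATN3, which says only that these letters are not there. A match is a description of letters, and binding was not measured.

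The dose response of the pooled extracts was small and held few genes. Of 16133 genes tested, 6 were called at an adjusted p under 0.05 (0.0372%), 4 higher (0.0248%) and 2 lower (0.0124%) at the high dose. CYP1A1 and the aldo-keto reductases AKR1C2, AKR1C1 and AKR1B10 rose, and SLC13A3, a sodium-coupled dicarboxylate transporter, and MATN3, the extracellular matrix protein matrilin-3, fell. All 6 changes had the same sign in all 3 extracts, which a call from these same libraries favours. Over all tested genes 14.8% were higher in all 3 extracts and 13.8% lower. The sizes of the 6 changes ran from 0.20 to 0.49 on the log2 scale. At an unadjusted p under 0.05 there were 869 genes (5.39%), 440 higher (2.73%) and 429 lower (2.66%). Over all tested genes the median log2 change was 0.0016.

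CYP1A1 (chr15:74719542-74725610, minus strand, GRCh38) rose in the pooled comparison. Levels are given in CPM, the count of a gene relative to the library total after TMM scaling. Zizyphus had 15.7, 14.1 and 12.9 CPM at the high dose, against 9.28, 7.43 and 8.03 CPM at the low dose. Longan had 10.9, 10.3 and 10.3 CPM at the high dose, against 7.90, 7.25 and 8.07 CPM at the low dose. Liriope had 9.28, 8.02 and 9.98 CPM at the high dose, against 8.19, 7.07 and 8.06 CPM at the low dose. High and low libraries did not overlap in zizyphus and longan, and overlapped in liriope. The pooled log2 change was 0.49 ± 0.075 (SE; adjusted p = 0.00694), a level 40.6% higher. By extract it was 0.79 ± 0.098 in zizyphus, 0.44 ± 0.10 in longan and 0.23 ± 0.10 in liriope, and the test of a difference between extracts gave an unadjusted p of 0.00315 and an adjusted p of 1.

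AKR1C2 and AKR1C1 encode near-identical hydroxysteroid dehydrogenases that reduce ketosteroids and aldehydes, and lie beside each other on chromosome 10 (chr10:4987400-5018031, minus strand, and chr10:4963253-4983283, plus strand). AKR1C2 had 280.3, 322 and 273 CPM at the high dose of liriope, against 237, 208 and 192 CPM at the low dose. In longan it had 309, 293 and 296 CPM at the high dose, against 249.9, 233 and 231 CPM at the low dose. In zizyphus it had 287, 275 and 247 CPM at the high dose, against 257, 218 and 226 CPM at the low dose. The doses stayed apart in liriope and longan and overlapped in zizyphus. The pooled log2 change of AKR1C2 was 0.33 ± 0.050 (SE; adjusted p = 0.00694).

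AKR1C1 rose as well. It had 692, 743 and 702 CPM at the high dose of liriope, against 568, 522 and 531 CPM at the low dose. It had 671, 666 and 670.2 CPM at the high dose of longan, against 620.0, 548 and 580.5 CPM at the low dose. It had 669.7, 654 and 649.6 CPM at the high dose of zizyphus, against 639, 562 and 575 CPM at the low dose. High libraries were above low libraries without overlap in each extract. The pooled log2 change was 0.25 ± 0.039 (SE; adjusted p = 0.00694). Windows of 100 bases were taken from the longest protein-coding transcript of AKR1C1 (6705 bases) and of AKR1C2 (3756 bases). Of those of AKR1C1, 17.4% also occur in another gene, mostly AKR1C2, and of those of AKR1C2 32.9% do. Windows of their shorter transcripts were not counted. The sharing of reads between these copies by the counting program makes their separate values uncertain.

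AKR1B10 (chr7:134527592-134541408, plus strand), which reduces retinal and other aldehydes, had similar changes in the 3 extracts. Liriope had 54.7, 59.1 and 53.2 CPM at the high dose, against 48.9, 45.7 and 43.8 CPM at the low dose. Longan had 58.1, 54.7 and 53.7 CPM at the high dose, against 50.6, 45.0 and 47.8 CPM at the low dose. Zizyphus had 53.1, 51.7 and 50.1 CPM at the high dose, against 45.1, 44.4 and 43.6 CPM at the low dose. No extract showed overlap. The pooled log2 change was 0.24 ± 0.031 (SE; adjusted p = 0.00224), a level 17.8% higher, with 0.27, 0.22 and 0.22 in liriope, longan and zizyphus. Of the 100-base windows of its longest protein-coding transcript 2.01% occur in another gene.

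MATN3 (chr2:19992111-20012694) had the smallest p of all genes. It had 95.7, 95.4 and 95.5 CPM at the high dose of liriope, against 111, 106 and 115 CPM at the low dose. At the high dose of longan it had 111, 111 and 114 CPM, against 123, 123 and 123 CPM at the low dose. In zizyphus it had 99.4, 102 and 94.6 CPM at the high dose, against 122, 115 and 115 CPM at the low dose. Every high library lay under every low library of its own extract. The pooled log2 change was -0.20 ± 0.025 (SE; adjusted p = 0.00206), a level 12.9% lower (a change of -12.9%).

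SLC13A3 (chr20:46557823-46684467), which carries citrate cycle intermediates into cells, moved alike. In liriope it had 63.9, 69.8 and 60.3 CPM at the high dose, against 75.1, 80.0 and 75.6 CPM at the low dose. In longan it had 72.6, 72.6 and 73.9 CPM at the high dose, against 77.0, 81.1 and 79.5 CPM at the low dose. In zizyphus it had 65.2, 62.3 and 62.6 CPM at the high dose, against 80.5, 75.8 and 80.5 CPM at the low dose. Here too no extract showed overlap, and over all 3 extracts the highest high library (73.9 CPM) was under the lowest low library (75.1 CPM). A call from these same libraries favours such a gap, and the share of all tested genes that have it was not counted. The pooled log2 change was -0.23 ± 0.033 (SE; adjusted p = 0.00689).

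**Figure D1:**
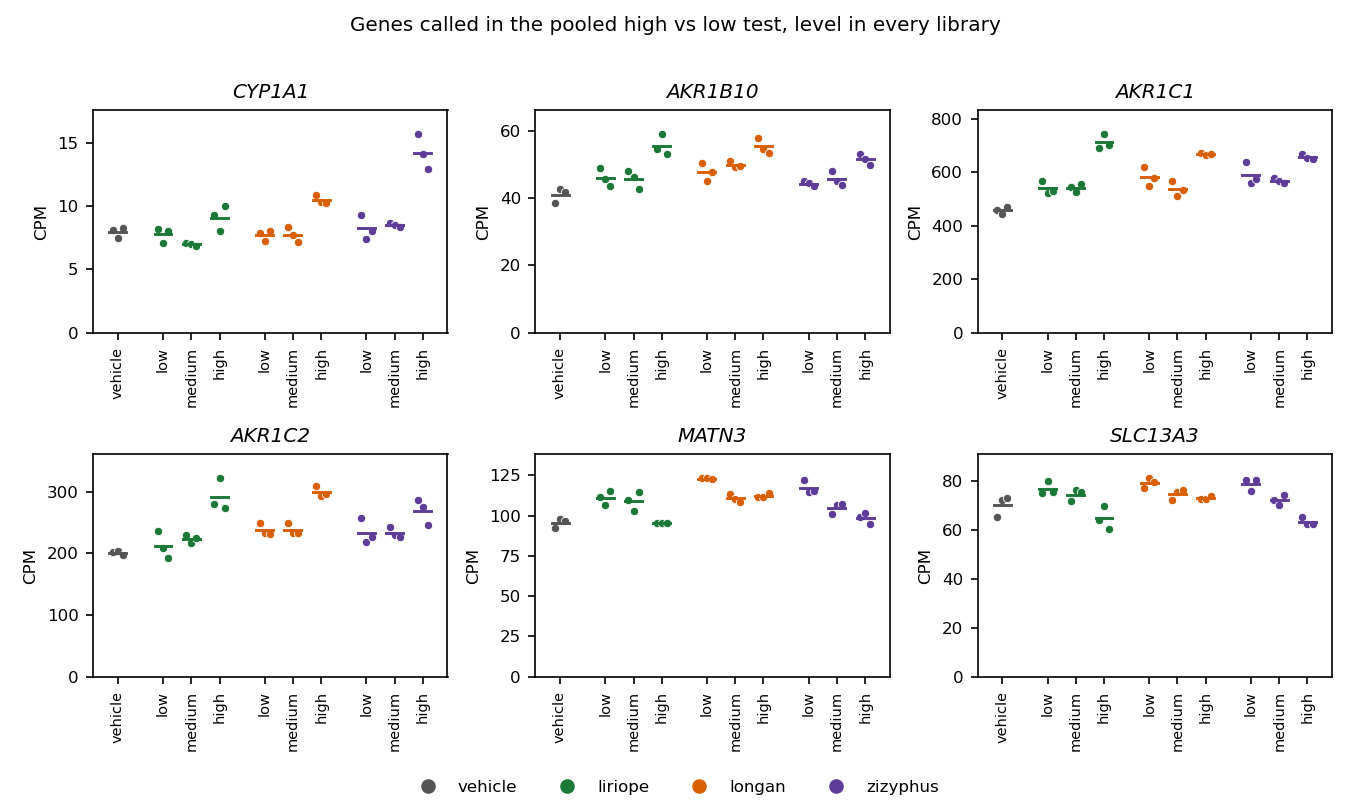
Normalized level (CPM, linear axis from 0) of the 6 called genes in every vehicle, low, medium and high library; points are libraries and short lines group means. Group means of CYP1A1 and the 3 aldo-keto reductases are higher at the high dose than at both lower doses in each extract, and those of MATN3 and SLC13A3 are lower at the high dose than at the low dose.

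What each extract showed by itself was tested with the same 18 libraries and 1 mean per group. Liriope gave 1 call (0.0062% of genes), AKR1C1, whose log2 change was 0.40 (adjusted p = 0.0211). DESeq2 gave 9 there and its own 6 libraries gave 0, and AKR1C1 lost its call without liriope low 2, high 3 or low 3. Longan gave 0 calls (0%), with 339 genes at an unadjusted p under 0.05 (2.1%), 2 calls by DESeq2 and 2 from a fit of its own 6 libraries. Zizyphus gave 4 calls (0.0248%): CYP1A1 rose (0.79, adjusted p = 0.00212), and ASNS, the asparagine synthetase (-0.43, adjusted p = 0.00212), SLC13A3 (-0.32, adjusted p = 0.0429) and MATN3 (-0.25, adjusted p = 0.0445) fell. DESeq2 gave 10 there and its own 6 libraries gave 0, and SLC13A3 and MATN3 lost their call in each fit that left out 1 zizyphus library. Of the 6 genes of the pooled comparison, 4 were thus called in an extract by these contrasts of 18 libraries, and 2, AKR1B10 and AKR1C2, in none. The split depended on the fit. In fits of an extract's own 6 libraries, AKR1C2 was called in longan (log2 change 0.33, adjusted p = 0.0152). No other gene of the pooled comparison was called in a fit of that kind, AKR1C1 in liriope (adjusted p = 0.959) and CYP1A1 in zizyphus (0.306) included. None of the 6 was called in all extracts. The 95% interval of the pooled log2 change reached a median of 0.082 to either side for genes at 10 to 100 CPM, against 0.145 in a single extract.

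**Figure D2:**
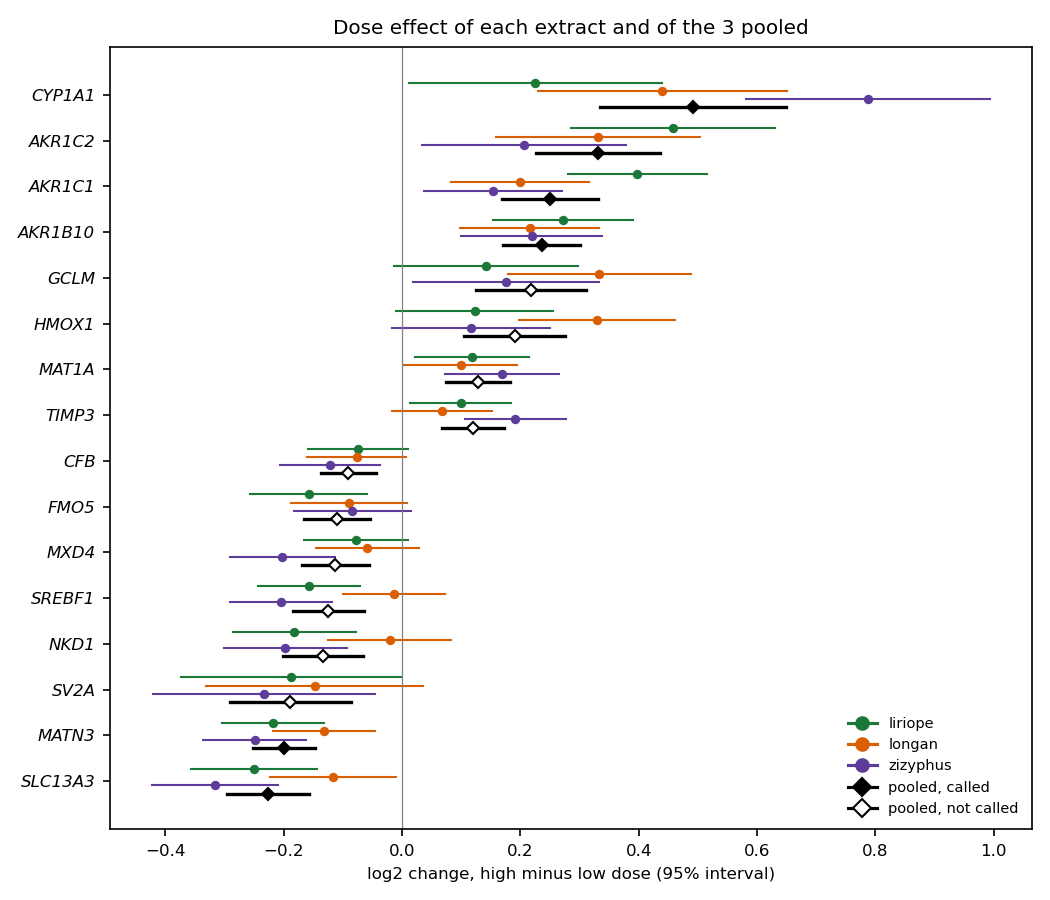
Log2 change, high minus low dose, with its 95% interval for 16 genes named by rule, for each extract (circles) and pooled (diamonds, filled where called). The filled diamonds are the 4 genes that rose and the 2 that fell.

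Whether the dose effect differed between the extracts was tested directly, and 0 genes were called (0%) by edgeR, with 473 at an unadjusted p under 0.05 (2.93%) and 3 called by DESeq2. ASNS, a target of the amino acid response factor ATF4, had the smallest p (4.43e-05, adjusted p = 0.521). In zizyphus it had 24.6, 24.9 and 22.6 CPM at the high dose, against 32.7, 32.3 and 32.2 CPM at the low dose. In longan the values were 33.7, 35.7 and 34.4 CPM at the high dose, against 33.2, 34.2 and 35.0 CPM at the low dose. Liriope had 28.0, 31.5 and 30.8 CPM at the high dose, against 34.5, 33.9 and 32.5 CPM at the low dose. There ASNS was lower without overlap (log2 change -0.16, unadjusted p = 0.0063, adjusted p = 0.776). The medium dose of zizyphus, with 24.4, 23.5 and 25.5 CPM, was as far down as its high dose. The 6 pooled genes had unadjusted p-values for this difference from 0.00315 (CYP1A1) to 0.731 (AKR1B10), which does not show that the extracts act alike.

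Genes next to the threshold were not called and are given as values. Among those higher at the high dose were MAT1A, which makes S-adenosylmethionine in liver (log2 change 0.13 ± 0.026, adjusted p = 0.168), GCLM (0.22 ± 0.044, adjusted p = 0.177), the metalloproteinase inhibitor TIMP3 (0.12 ± 0.025, adjusted p = 0.21) and HMOX1 (0.19 ± 0.041, adjusted p = 0.25). MAT1A had 153, 158 and 169 CPM at the high dose of liriope, against 144, 149 and 149 CPM at the low dose, and its doses did not overlap in any extract. HMOX1 had its largest difference in longan, with 72.9, 75.3 and 70.3 CPM at the high dose, against 59.6, 57.2 and 57.3 CPM at the low dose. Its doses overlapped in liriope and zizyphus. GCLM, too, had its largest difference in longan, with 42.1, 43.2 and 42.3 CPM at the high dose, against 36.8, 32.7 and 31.7 CPM at the low dose. GCLM and HMOX1 each passed the threshold in 6 of 32 alternatives, MAT1A in 4 and TIMP3 in 3.

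Among those lower at the high dose were SREBF1, the transcription factor of fatty acid synthesis (-0.12 ± 0.029, adjusted p = 0.435), the transcriptional repressor MXD4 (-0.11 ± 0.027, adjusted p = 0.443), the flavin monooxygenase FMO5 (-0.11 ± 0.027, adjusted p = 0.451) and the Wnt pathway inhibitor NKD1 (-0.13 ± 0.032, adjusted p = 0.451). Complement factor B, CFB, stood at -0.09 ± 0.022 (adjusted p = 0.526) and the vesicle protein SV2A at -0.19 ± 0.049 (adjusted p = 0.645). SREBF1 had 119, 116 and 119 CPM at the high dose of zizyphus, against 136, 138 and 135 CPM at the low dose. In longan its values were 138, 129 and 136 CPM at the high dose, against 133, 139 and 136 CPM at the low dose, so that SREBF1 overlapped there. HMGCS1, an enzyme of cholesterol synthesis reported by rule, had a log2 change of -0.10 ± 0.026 (adjusted p = 0.645), with no overlap of doses in any extract. Albumin (ALB) at 0.03 ± 0.052, TXNIP at -0.0017 ± 0.078, IGFBP1 at 0.07 ± 0.15 and the metallothionein MT1G at -0.12 ± 0.10, also reported by rule, had intervals that included 0. TXNIP stood at -0.13 in liriope, -0.14 in longan and 0.26 in zizyphus (unadjusted p = 0.0415, adjusted p = 1), so that its pooled value averages values of both signs.

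High and low libraries did not overlap in any of the 3 extracts, with 1 direction, for 4 higher genes (0.0248%) and 6 lower genes (0.0372%). The higher ones were AKR1C1, AKR1B10, MAT1A and DGAT1, the last step of triglyceride synthesis. The lower ones included MATN3, SLC13A3, MXD4, HMGCS1 and B3GNT4, a glycosyltransferase. DGAT1 (0.10) and B3GNT4 (-0.62, at a mean of 0.555 CPM) were named after their values were seen. In a single extract 9.09% (liriope), 9.24% (longan) and 8.31% (zizyphus) of genes had no overlap.

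Genes were also chosen from 12 libraries and followed in the extract left out. With liriope left out, CYP1A1 was called (log2 change 0.62), and it stood at 0.23 ± 0.11 in the liriope libraries (unadjusted p = 0.0687). With zizyphus left out, AKR1C2 was called (0.39), and it stood at 0.20 ± 0.079 in zizyphus (unadjusted p = 0.0274). With longan left out no gene was called, and 752 had an unadjusted p under 0.05. Of the genes with an unadjusted p under 0.001 among the 12 libraries, 17 of 23 had the same sign in liriope (73.9%), 13 of 15 in longan (86.7%) and 9 of 12 in zizyphus (75%). Over all tested genes it was 50.8%, 53% and 53.4%.

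NRF2 targets, a list of 25 genes written with earlier results of the series known, stood higher at the high dose. Of 24 tested, 3 were called higher, the aldo-keto reductases above, against 0.0248% of all genes. At an unadjusted p under 0.05, 14 were higher, against 2.73% of all genes. None was lower at that threshold. The median log2 change of the list was 0.089, with 0.12 in liriope, 0.12 in longan and 0.054 in zizyphus, and 22 members were over 0. In 17 of the 24 the change was over 0 in all 3 extracts, against 14.8% of all genes. NQO1, a quinone reductase, averaged 460.5 CPM at the high dose and 423 CPM at the low dose (log2 change 0.12, unadjusted p = 0.00197). OSGIN1 (0.14), the conjugate exporters ABCC3 (0.11) and ABCC2 (0.09), the transketolase TKT (0.07), the glutathione reductase GSR (0.06) and the glutathione synthesis enzyme GCLC (0.06) also had unadjusted p-values under 0.05. With library size as the only scaling, where 171 genes were higher and 743 lower at that threshold among all tested and the median of all genes was -0.022, 7 NRF2 targets were higher and 0 lower. With transcript length as a covariate 17 were higher and 5 called, and among all 16133 tested genes 751 were higher and 14 called. Here and below that covariate is 1 value per library, the trend of its levels with transcript length, estimated from these same libraries.

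Among AhR targets, CYP1A1 was the called gene. Of 7 tested, 1 was called, against 0.0248% of all genes called higher, and 4 were higher at an unadjusted p under 0.05, against 2.73% of all genes, among them NQO1, which is in both lists. The receptor's own repressor AHRR averaged 0.944 CPM at the high dose and 0.745 CPM at the low dose (0.34 ± 0.15), and the aldehyde dehydrogenase ALDH3A1 0.787 and 0.584 CPM (0.42 ± 0.18). TIPARP, another AhR target, had a log2 change of 0.04 ± 0.035.

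Genes of fatty acid synthesis stood slightly lower at the high dose. Of 17 tested, 0 were called, 6 were lower at an unadjusted p under 0.05 against 2.66% of all genes, and the list median was -0.057. They were SREBF1, the elongase ELOVL6 (-0.10), the desaturase FADS2 (-0.11), the acetyl-CoA synthetase ACSS2 (-0.09), the phosphatidate phosphatase LPIN1 (-0.08) and the acyl-CoA synthetase ACSL3 (-0.07). The median was -0.080 in liriope, -0.014 in longan and -0.069 in zizyphus, and 10 of the 17 were under 0 in all 3 extracts, against 13.8% of all genes. Of 27 genes of cholesterol synthesis 3 were lower, HMGCS1 and MVD among them, with a list median of -0.032, and of 30 ATF4 targets 4 were, with a median of -0.036. In both of these lists 0 members were called. With library size as the only scaling the lower members were 8 of fatty acid synthesis, 10 of cholesterol synthesis and 7 ATF4 targets, and with transcript length as a covariate they were 8, 7 and 7. The lower genes among all 16133 tested rose too, from 429 to 743 with library size alone and to 638 with the length covariate. With library size alone the median of all genes was -0.022.

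In the list of hypoxia and glycolysis genes 9 of 31 were higher and 1 was lower at an unadjusted p under 0.05, against 2.73% and 2.66% of all genes, 0 were called, and the median was 0.068. Glycolytic enzymes such as ALDOA (0.11), GPI (0.10) and LDHA (0.10) were among the higher ones, and the glucose transporter SLC2A1 (-0.11) was the lower one. The list median was 0.074 in liriope, -0.0014 in longan and 0.15 in zizyphus, a difference that was not tested. With library size as the only scaling 3 were higher, and among all 16133 tested genes 171 were, against 440 in the main fit. Of 13 genes encoded by mitochondrial DNA 5 were higher, against 2.73% of all genes, MT-ND1 with 0.26 ± 0.087, 0 were called, and the median was 0.15. Without the second liriope library at the high dose 3 were higher and the median was 0.071, and without the 4 libraries farthest from their groups, that one among them, 8 were higher and the median was 0.095. In that library mitochondrial genes took 15.9% of counts, against 10.3 to 12.4% in the other 17. Of the 36 pathway lists, 2 held a called gene, those of NRF2 and AhR.

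The remaining lists held 0 called genes, and their counts stand against 2.73% of all genes higher and 2.66% lower at an unadjusted p under 0.05. Of 24 immediate early genes 4 were lower at an unadjusted p under 0.05 (list median -0.043), of 13 Wnt targets 4 were lower and 1 higher (-0.016), and of 16 genes of fatty acid oxidation 4 were higher and 1 lower (0.015). Among 10 metal response genes, which include the metallothioneins, 1 was lower (-0.074). In that list 6 were lower and the metallothionein MT1F was called (-0.21, adjusted p = 0.00889) with transcript length as a covariate, against an adjusted p of 0.951 without it, and 5 were lower without the 4 libraries farthest from their groups. Among all 16133 tested genes 638 and 392 were lower in those fits at an unadjusted p under 0.05, against 429 in the main fit. The 32 ribosomal proteins had 0 past that threshold and a median of 0.033, which was -0.0057 without the second liriope library at the high dose and -0.0039 with transcript length as a covariate. The 27 proteasome genes had 0 past it and a median of 0.046. The other 23 lists had at most 3 members past it in 1 direction and medians from -0.051 to 0.043.

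**Figure D3:**
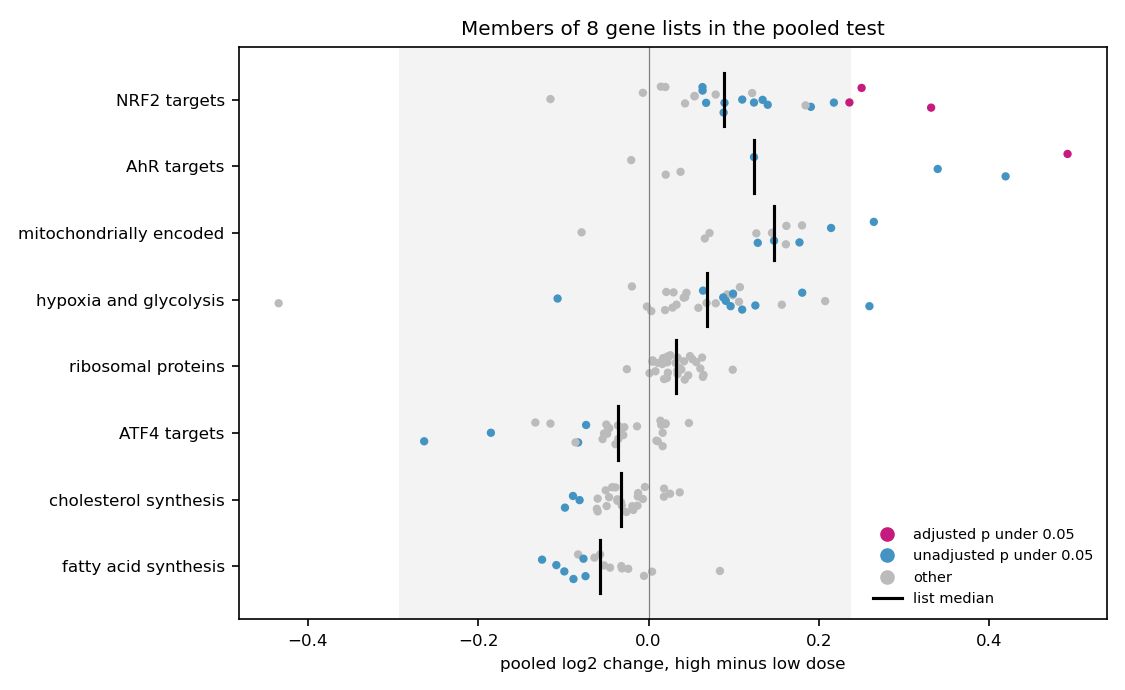
Pooled log2 change, high minus low dose, of the tested members of 8 gene lists; points are genes, black lines list medians and the shaded band holds the central 95% of all tested genes (-0.29 to 0.24). Most NRF2 targets lie to the right of 0 and most genes of fatty acid synthesis to the left; the 4 called genes are 3 NRF2 targets and the rightmost AhR target.

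The medium dose, whose libraries the high against low comparison did not use, gave 0 calls against the low dose (0%) by edgeR, 3 by DESeq2 and 647 genes at an unadjusted p under 0.05 (4.01%). Both comparisons share the low dose libraries. CYP1A1 stood at -0.03 ± 0.053 (log2, medium minus low), AKR1C2 at 0.02 ± 0.040, AKR1C1 at -0.05 ± 0.029 and AKR1B10 at 0.03 ± 0.032. For these 4 genes medium and low libraries overlapped in every extract, and medium and high libraries overlapped in none. The genes called in high against low were chosen from those libraries, which favours gaps between them and the medium dose. Overlap with the medium dose was counted for the called genes only, so no share over all genes stands beside it. SLC13A3 stood at -0.09 ± 0.028 (unadjusted p = 0.00456, adjusted p = 1) and MATN3 at -0.11 ± 0.024 (unadjusted p = 8.4e-05, adjusted p = 0.338). For both, medium and low libraries did not overlap in 2 of 3 extracts. MATN3 had 101, 107 and 107 CPM at the medium dose of zizyphus and 113, 111 and 108 CPM at that of longan.

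Against the vehicle, 4102 genes were called at the high dose (25.4%) and 4109 at the low dose (25.5%), so a call against the vehicle separates the doses little, and the vehicle's own sample code cannot be told apart from the treatment. CYP1A1 averaged 11.3 CPM at the high dose, 7.92 CPM at the low dose and 7.95 ± 0.39 CPM in vehicle (SD, n = 3). Its log2 change from vehicle was 0.48 at the high and -0.0078 at the low dose. AKR1C1 stood 0.57 and 0.32 over vehicle at the high and low dose, AKR1C2 0.51 and 0.18, and AKR1B10 0.40 and 0.17. MATN3, in contrast, stood 0.09 over vehicle at the high dose (adjusted p = 0.0533) and 0.29 at the low dose, and SLC13A3 at -0.07 (adjusted p = 0.221) and 0.16. For both genes that fell with dose, the high libraries were thus nearer to vehicle than the low libraries were. MATN3 had 92.3, 98.0 and 96.4 CPM in vehicle.

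The same 6 genes were followed in the other replicated extracts, the ethanol extract of Schisandrae Fructus (schisandra) and the water extracts of the decoctions Soshiho-tang (soshiho) and Yijin-tang (yijin), also at 500 against 20 µg/mL, in 1 fit of 54 libraries. Soshiho had 4 high and low libraries together, and schisandra and yijin had 6 each. High against low called 1272 genes in schisandra (7.88%), 858 in soshiho (5.32%) and 1332 in yijin (8.26%). CYP1A1 had a log2 change of 0.48 ± 0.047 in the 3 pooled extracts, against 2.19 ± 0.073 in schisandra, 4.06 ± 0.075 in soshiho and 3.27 ± 0.072 in yijin. AKR1B10 had 0.23 ± 0.032, against 0.98 ± 0.054, 1.28 ± 0.066 and 1.35 ± 0.054 in the same order. Each of these differences was called (largest adjusted p = 1.22e-11). The pooled extracts were chosen with earlier results of these data known, and the 6 genes were called from their libraries. AKR1C1 and AKR1C2 were closer: AKR1C2 had 0.33 ± 0.035 pooled, against 0.38 ± 0.060 in schisandra (adjusted p of the difference = 0.773), 0.80 ± 0.074 in soshiho (8.62e-05) and 0.58 ± 0.060 in yijin (0.0294).

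The 2 genes that fell did not follow that order. SLC13A3 had -0.23 ± 0.027 pooled, against -0.45 ± 0.047 in schisandra (adjusted p of the difference = 0.00795), -0.24 ± 0.058 in soshiho (0.974) and -0.53 ± 0.047 in yijin (0.000215). MATN3 had -0.20 ± 0.032 pooled, against 0.03 ± 0.054 in schisandra (adjusted p of the difference = 0.0257), 0.17 ± 0.067 in soshiho (0.000715) and -0.08 ± 0.055 in yijin (0.404). MATN3 was not called in high against low in any of these other extracts (adjusted p = 0.835, 0.149 and 0.471).

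**Figure D4:**
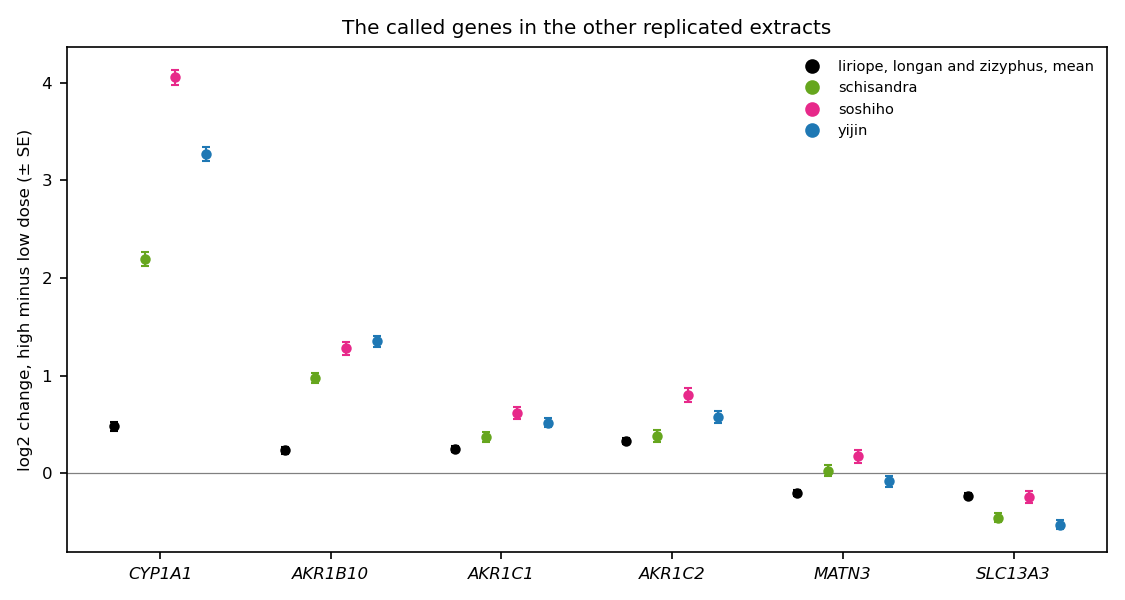
Log2 change, high minus low dose, with its SE for the 6 called genes, as the mean of liriope, longan and zizyphus and in schisandra, soshiho and yijin. CYP1A1 and AKR1B10 lie far higher in the other extracts, SLC13A3 is under 0 in all, and MATN3 is lowest in the pooled extracts.

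Library totals were 22.0 to 37.6 M counts. HepG2 and hepatocyte markers were present, 10 of 10, with a summed level of 44300 to 50000 CPM at the high dose and 43700 to 50000 CPM at the low dose. Of the markers of other cells, KDR, TEK, LUM, HBB and NEFL were at 0 in both dose means. The fibroblast sum was 66.3 to 77.4 CPM at the high dose and 67.7 to 74.1 CPM at the low dose, the endothelial sum 4.57 to 5.96 and 4.95 to 6.35 CPM, and the kidney sum 18.5 to 23.3 and 19.1 to 22.5 CPM. The blood cell sum of 1030 to 1320 CPM at the high dose and 1140 to 1330 CPM at the low dose was nearly all LYZ. The second liriope library at the high dose was the deepest and stood farthest from its group, and the spread within groups ran mostly along 1 axis (51.1%) that followed transcript length (Spearman rho = -0.694 over 9860 genes, a description across genes, which are not independent). With that library left out, the 6 genes stayed called and 1 more was called. The part of this axis in the results was not tested beyond the fits given under the processing alternatives.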

How the data were processed

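Directional RNA-seq libraries of HepG2 cells were read as pairs of 100 bases, per the labels' protocols, from RNA with an integrity number above 7. Per the submitters' processing notes, reads were handled with FastQC 0.11.9, Trim Galore 0.6.5, STAR 2.7.3a (hg38) and RSEM 1.3.3; the annotation release is not given in the sources used here. The deposited values are expected counts per gene (60675 genes), of which 10.4% had a fraction, and RSEM shares reads among genes they fit equally. They were rounded here to whole counts.

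High and low libraries were fitted in edgeR 4.0.16 (R 4.3.3) by the quasi-likelihood test, with TMM scaling, filterByExpr and extract as a block. Single extracts, medium dose and vehicle were contrasts of group means, and differences between extracts were interaction terms. Adjustment was Benjamini-Hochberg's across every tested gene, with calls under 0.05. Each SE was taken from the fit. CPM were scaled with TMM library sizes of 30 libraries. The code was tested on simulated data. Positions are from GENCODE 29.

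Named genes were, per direction, called genes of at least 5 CPM and then the smallest p up to 8, the calls of each extract, and 7 genes fixed by name. List members named without a call were chosen after their values were seen. The extracts, gene lists and tests were chosen with earlier results of these data known. There were 41 lists (36 pathways, 5 of markers). Replicates were not identical, and differed more than counting noise. Alternatives covered scaling, filter, DESeq2 1.42.0, limma 3.58.1, blocks and left-out libraries. A gene counted in the totals is not reported here by name.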

Additional observations from a re-analysis of the deposited data

Results flagged for a closer look

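The dose effect of the 6 genes was compared between the mean of liriope, longan and zizyphus and each other replicated extract, and 14 of 18 differences passed an adjusted p under 0.05 in edgeR's quasi-likelihood test. The 6 genes were called from the high and low libraries of these pooled extracts, which were chosen with earlier results of these data known. The choice therefore bears on these differences. The share of all tested genes with such a difference was not counted. For CYP1A1 the difference (log2, pooled extracts minus the other) was -1.71 from schisandra (adjusted p = 1.32e-18), -3.57 from soshiho (5.4e-32) and -2.78 from yijin (3.04e-27). AKR1B10 differed by -0.74 from schisandra, -1.05 from soshiho and -1.12 from yijin. AKR1C2 differed by -0.47 from soshiho and -0.25 from yijin, and AKR1C1 by -0.37 from soshiho and -0.27 from yijin. SLC13A3 differed by 0.22 from schisandra and 0.30 from yijin, where it fell further. MATN3 differed by -0.23 from schisandra (adjusted p = 0.0257) and -0.38 from soshiho (adjusted p = 0.000715), where it was not called. Dose and sample code position run together in these extracts too.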

How the results depend on the processing

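The 6 pooled genes were called in each of the 18 fits that left out 1 library, with 6 to 7 genes in all (7 without liriope high 1, liriope high 2 or longan high 1). The pooled count was 6 with DESeq2's size factors or library size alone, 9 with a linear dose term over 27 libraries, 7 with limma's library weights and 9 without the 4 libraries farthest from their groups. It was 95 with no filter, 16 by DESeq2 (5 of the 6 among them, CYP1A1 having no adjusted p there), 14 in the fit of 54 libraries, 14 with transcript length as a covariate, 1 without liriope, 0 without longan and 1 without zizyphus. The last 3 have fewer samples. The cause of the others was not tested. The length covariate (1 trend value per library, estimated from these same libraries), the 4 libraries and limma's weights were chosen after seeing the data. AKR1B10, SLC13A3, MATN3 and AKR1C1 lost their call whichever extract was left out, CYP1A1 without longan or zizyphus, and AKR1C2 without liriope or longan.

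Replicate numbers were not taken to pair the libraries, since 5 of 9 correlations of same-numbered deviations over all genes, not every one, were over 0.1 (-0.63 to 0.67), though single genes such as IGFBP1 and TXNIP were lowest in replicate 3 in longan and zizyphus, and 9 of 18 libraries correlated best with their own number. With the replicate block within extracts 5 pooled genes were called (without AKR1C1), 7 with the block by code set, 0 in liriope, 1 in zizyphus and 2 for medium against low dose, and TXNIP stood at -0.0042 within extracts and -0.0039 by code set. The test between extracts called 150 genes with no filter, 3 by DESeq2, and 0 to 1 with 1 library left out (1 without zizyphus low 1). Liriope gave 4 with library size alone, 168 with no filter, 9 by DESeq2, 0 from its own 6 libraries and 0 to 4 with 1 left out (4 without liriope high 1; 0 without liriope low 2, high 3 or low 3). Longan gave 66 with no filter, 2 by DESeq2, 2 from its own 6 libraries and 0 in each fit with 1 left out. Zizyphus gave 75, 10 and 0 in those fits and 2 to 3 with 1 left out. Medium dose gave 56 with no filter and 3 by DESeq2. High against vehicle gave 2722 (without vehicle 1) to 3399 with 1 vehicle library left out. With library size alone it gave 5362, of which 4625 were higher, against 2017 of 4102, and the median of all genes against vehicle shifted to 0.114.

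Uncalled genes that changed sign were ALB (-0.044 without liriope, -0.0011 with transcript length, -0.013 without the 4 libraries, -0.017 to 0.051 with 1 left out), TXNIP (0.0038 with no filter, 0.00056 linear, 0.059 without liriope, 0.070 without longan, 0.024 with limma, 0.025 without the 4 libraries, -0.049 to 0.043 with 1 left out) and IGFBP1 (-0.027 without zizyphus, -0.033 to 0.13 with 1 left out). Depth limits genes under 1 CPM most, where the 95% interval reached a median of 0.45 to either side.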

Other observations

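IGFBP1, the insulin-regulated binding protein of growth factors, had no called dose change, and was lowest in replicate 3 of every longan and zizyphus group. In longan replicate 3 had 53.7 CPM at the high, 39.1 CPM at the medium and 57.7 CPM at the low dose, each the lowest of its group. In zizyphus replicate 3 had 60.1, 32.8 and 38.8 CPM in the same order of doses, again each the lowest. TXNIP, a glucose-responsive inhibitor of thioredoxin, showed the same order, with 37.4, 40.9 and 43.6 CPM in replicate 3 of longan and 46.6, 41.5 and 39.4 CPM in that of zizyphus. These groups share 1 set of sample codes. Among genes over 10 CPM, 9390 in all, 23 had a pooled log2 change beyond 0.2 in size and 1 beyond 0.5, TUBA1B-AS1 (3.75, adjusted p = 0.782), an antisense gene named after its value was seen.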
